A study of Mus musculus with 5 samples.

Results

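The Hedgehog pathway is followed here through 10 genes: its ligand Shh, the receptor Ptch1, the transducer Smo, the transcription factors Gli1, Gli2 and Gli3, the co-receptors Gas1, Cdon and Boc, and the ligand-binding antagonist Hhip. They were chosen by gene symbol, and all 10 were found among the 27998 genes of the matrix. The cells came from the ocular area of wild-type C57BL/6J mice, with 1 embryo at each of 5 stages of 12, 16, 20, 24 and 26 somites. Both optic areas of each embryo were cut out by needle and dissociated with trypsin, and RNA was counted with the 10x Genomics Chromium 3′ method, which tags each captured RNA molecule with a unique molecular identifier (UMI). All embryos were untreated, so the design holds a series of stages and no genetic or chemical change of the pathway. The pooled matrix separates 5 libraries by a barcode suffix that names no stage, so the libraries are numbered 1 to 5, no stage is assigned, and values are given per library with no test.

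Hedgehog proteins are secreted signals. Without ligand, the receptor Ptch1 holds the membrane protein Smo inactive, and Gli3 and Gli2 are processed into repressors of target genes. Bound ligand releases Smo, full-length Gli proteins activate transcription, and Gli1, Ptch1 and Hhip are among the genes that are switched on, which makes their RNA a common readout of the response. In the forebrain, Shh from the axial midline patterns the ventral neural tube and separates the eye field into a pair of optic vesicles, and Gas1, Cdon and Boc help target cells receive the ligand.

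After filtering, 8106 of 8194 barcodes were kept, with 1280 to 1986 cells and a median of 20713 to 30922 UMIs per library. Of 8154 barcode sequences, 40 occurred in more than 1 library. Cells were clustered without the Hedgehog genes and named from marker lists, which gave 1699 optic vesicle-like, 1367 crest mesenchyme-like, 1154 other forebrain-like, 459 head mesoderm-like, 393 surface ectoderm-like and 365 ventral neuroepithelium-like cells. The ventral class had a summed 898 counts per 1000000 UMIs (CPM) of its hypothalamus list, against 450 CPM in the optic vesicle-like class. That list includes Nkx2-1. The summed optic vesicle markers were alike in both (1251 and 1278 CPM). Rax and Six6 are in both lists, and a sum can rest on a few abundant genes. The sums therefore do not show which optic vesicle markers the ventral class carried. The 388 endothelium-like and 253 erythroid-like cells serve as a background from cells of blood and vessels. Free RNA was present, since the 8 erythroid markers summed to 192 CPM in optic vesicle-like cells and to 279 CPM in the ventral class. Outside these classes stood 789 cells whose leading genes went against their marker names, here called unnamed, 798 cells with little of the nuclear RNA Malat1, and 338 cells with markers of neuroepithelium together with crest, mesoderm or endothelium and a median of 57692 UMIs, here called mixed. Libraries differed in makeup: library 1 held 3 optic vesicle-like cells and library 5 held 798, and the ventral class had 121, 169 and 71 cells in libraries 2, 3 and 4 but 2 each in libraries 1 and 5.

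Stretches before a RefSeq start site are shown as reference sequence, to set DNA near a start beside the levels. The genes differed in opposite directions between the ventral and optic vesicle-like classes (Ptch1 higher, Gas1 and Gli2 lower in the ventral class). Each is the 250 bases before the start site in the RefSeq table, build GRCm38.p6, read 5′ to 3′ on the gene's own strand. The Ptch1 window is chr13:63565736-63565985 on the minus strand and lies inside the annotated gene span. The Gas1 window is chr13:60177536-60177785 on the minus strand, and the Gli2 window, chr1:119053620-119053869 on the minus strand, abuts the annotated gene.
Ptch1: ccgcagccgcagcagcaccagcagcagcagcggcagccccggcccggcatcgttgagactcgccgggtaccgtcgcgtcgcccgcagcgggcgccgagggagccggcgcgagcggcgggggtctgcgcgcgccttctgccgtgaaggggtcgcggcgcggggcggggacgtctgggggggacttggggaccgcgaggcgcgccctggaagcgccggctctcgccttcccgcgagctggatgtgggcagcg
Gas1: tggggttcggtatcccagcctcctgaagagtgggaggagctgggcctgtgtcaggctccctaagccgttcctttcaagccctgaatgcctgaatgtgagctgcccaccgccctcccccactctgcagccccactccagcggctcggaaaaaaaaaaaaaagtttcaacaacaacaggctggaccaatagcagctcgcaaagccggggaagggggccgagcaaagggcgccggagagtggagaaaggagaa
Gli2: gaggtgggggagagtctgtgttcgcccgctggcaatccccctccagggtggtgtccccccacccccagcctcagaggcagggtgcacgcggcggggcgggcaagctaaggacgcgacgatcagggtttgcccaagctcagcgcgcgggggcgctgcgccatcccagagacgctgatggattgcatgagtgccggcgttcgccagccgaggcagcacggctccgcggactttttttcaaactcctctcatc
RefSeq windows were at hand for 7 of the 10 genes, and those of Ptch1, Cdon and Gli3 lie inside the annotated gene and not upstream of it. The binding motif of Gli proteins, GACCACCCA, was searched on both strands, and 0 of the 7 windows held it exactly, as against 0.225% of the 32851 promoter windows of the same length. With 1 mismatch allowed, the motif was in 0 of the 7 windows and in 5.79% of all windows. With shares this low, 0 is the likely count for any 7 windows, so the search does not set these genes apart. It describes these letters in these windows and says nothing on sites elsewhere. The windows differed in base makeup, with a GC content of 78.4% in the Ptch1 window inside the gene. It was 67.2% in the window before Gli2 and 58.8% in that before Gas1.

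Shh, the only Hedgehog ligand of this set, lies at chr5:28456815-28467256 on the minus strand of GRCm38. It was counted 2467 times in all kept cells, 1132 of them (45.9%) in the ventral neuroepithelium-like class, 710 (28.8%) in other forebrain-like cells, 300 (12.2%) in the unnamed clusters and 168 (6.81%) in optic vesicle-like cells. The related ligands Dhh and Ihh were close to absent, with 1 and 5 UMIs in the 1699 optic vesicle-like cells and 1 and 2 UMIs in the ventral class. Cells with 2 or more Shh UMIs numbered 398. Of these, 179 (45.0%, exact Clopper-Pearson 95% interval 40.0 to 50) were ventral, 132 (33.2%, 28.6 to 38.0) were other forebrain-like, 35 (8.79%) were optic vesicle-like and 22 (5.53%) were unnamed. The erythroid-like, endothelium-like and head mesoderm-like classes held 0 such cells, and the crest mesenchyme-like class held 1.

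Where these cells lay differed among the libraries. In library 1, 22 of 34 cells with 2 or more Shh UMIs were other forebrain-like and 11 were in an unnamed cluster. In library 2, 68 of 156 (43.6%) were ventral and 62 other forebrain-like. In library 3, 74 of 133 (55.6%) were ventral and 15 other forebrain-like. In library 4, 35 of 74 (47.3%) were ventral and 33 other forebrain-like. Library 5 had 1 such cell, with 5 UMIs, among 1735 cells. Shh RNA was thus nearly missing from library 5, which also had 2 ventral and 7 other forebrain-like cells, so fewer cells of those classes and less Shh RNA per cell of them cannot be told apart in that library.

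**Figure D1:**
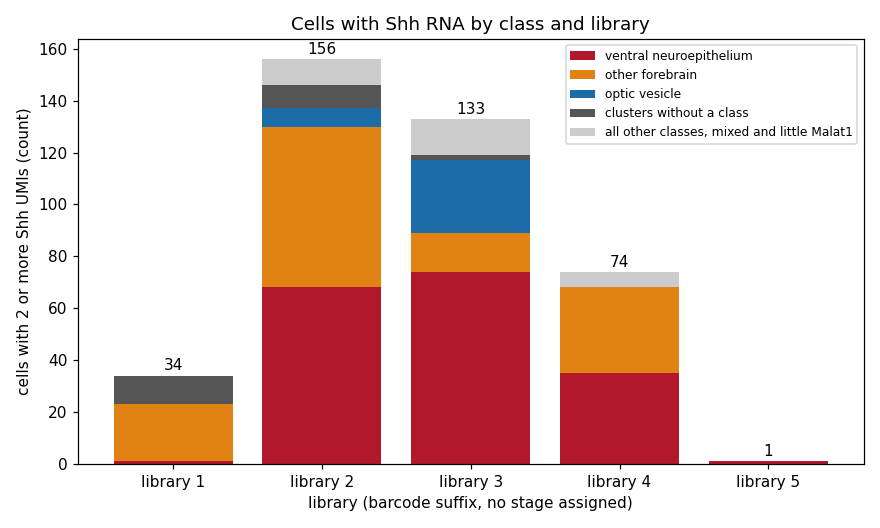
Number of cells with 2 or more Shh UMIs in each library (y axis, cells), stacked by class. Ventral and other forebrain-like cells make up most of the bars of libraries 2 to 4 (156, 133 and 74 cells), library 1 has 34 cells with 11 in an unnamed cluster, and library 5 has 1.

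The Shh level in the ventral class was 212, 62.3 and 104 CPM in libraries 2, 3 and 4. Other forebrain-like cells had 13.2, 52.9, 12.0 and 16.4 CPM in libraries 1 to 4, all below the ventral values. Optic vesicle-like cells had 8.68, 5.15, 0.221 and 0 CPM in libraries 2 to 5. The 3 classes kept this order in each of libraries 2, 3 and 4, and the ranges of the ventral and forebrain classes over libraries did not overlap. Of the 798 optic vesicle-like cells of library 5, 0 had a Shh UMI, which allows up to 0.128 CPM by 3 counts. Surface ectoderm-like cells had 0 to 2.89 CPM over 5 libraries, and crest mesenchyme-like, head mesoderm-like, endothelium-like and erythroid-like cells had at most 0.714 CPM in any library. Library 2 was highest in the ventral, forebrain, ectoderm and optic vesicle-like classes alike.

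Shh RNA was concentrated in a few clusters of the neuroepithelium. Both ventral clusters held it. The cluster led by Sepp1, Mt3 and Nkx6-2 (218 cells) had 140 CPM, with 335, 49.4 and 116 CPM in libraries 2, 3 and 4. The cluster led by Tbx3 and Fgf10 (147 cells) had 87.2 CPM, with 101, 77.2 and 40.6 CPM in libraries 2, 3 and 4, the last over 10 cells. The order of these clusters was therefore reversed in library 3. Among other forebrain-like cells, the Shh RNA lay mostly in a pair of clusters led by Dbx1. Both had Nkx2-1, a marker of the hypothalamus list, among their 10 leading genes. That with Hesx1 and Foxa2 (172 cells) had 95.2 CPM, with 61.5 CPM in library 1 and 121 CPM in library 2. That with Amot and Nkx2-4 (108 cells) had 68.9 CPM, with 48.6 and 66.6 CPM in libraries 3 and 4. In turn they held 73 and 47 of the 132 other forebrain-like cells with 2 or more Shh UMIs. The split of these cells into ventral and other forebrain-like therefore does not separate cells with Nkx2-1 from cells without it. The remaining forebrain clusters had 0 to 7.23 CPM. Within the optic vesicle-like class, the Shh RNA was mainly in a cluster of 283 cells led by the histone gene Hist1h2ap, at 7.60 CPM, with a median of 51081 UMIs per cell. Its 275 cells in library 3 had 7.56 CPM, and 25 of them (9.09%) had 2 or more Shh UMIs. A second optic vesicle-like cluster, led by Grem1 and with 130 of its 132 cells in library 2, had 8.26 CPM.

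The highest level of all was in an unnamed cluster of 11 cells, all of library 1, led by genes such as Spink1, Acta2 and the notochord gene T. It had 583 CPM of Shh (exact Poisson 95% interval 509 to 664), and each of its 11 cells had 2 or more Shh UMIs. These cells gave 225 of the 409 Shh UMIs of library 1 (55.0%). Ptch1 in the same cells was 153 CPM (116 to 197). As an unnamed cluster of 11 cells from 1 library, they entered no comparison.

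Because an Shh UMI can be free RNA, the share of cells with at least 1 UMI was set against erythroid-like cells. After each cell was thinned to 10000 UMIs, 47.2% of ventral, 11.4% of other forebrain-like, 0.906% of optic vesicle-like and 0% of erythroid-like cells had an Shh UMI, the last with an exact 95% upper bound of 1.45%. Over all libraries, the share in optic vesicle-like cells lay below that bound. By library it was 4.38% (1.62 to 9.29) in library 2, 1.69% (0.778 to 3.19) in library 3 and 0% in libraries 4 and 5. Erythroid-like cells gave 0% in libraries 2 and 3, with upper bounds of 3.66% (99 cells) and 10.3% (34 cells) in turn. The share in library 3 thus lay below the bound of its own library. In CPM, optic vesicle-like cells had 2.71 (2.31 to 3.15), above the erythroid-like 0.0919 (0.00233 to 0.512). Whether their Shh UMIs were free RNA was not tested. Unthinned shares were 62.2%, 17.7%, 3.35% and 0.395%, at median depths of 23189, 26665, 30336 and 42576 UMIs.

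Ptch1 encodes the receptor for Shh and is itself a target of the pathway (chr13:63508328-63573598, minus strand). It was highest in the ventral class, at 166, 89.5 and 121 CPM in libraries 2, 3 and 4. Head mesoderm-like cells had 71.3, 65.0, 51.7 and 67.5 CPM in libraries 1 to 4. Other forebrain-like cells had 25.3, 79.7, 52.7 and 53.1 CPM in the same libraries. The ventral range did not overlap that of head mesoderm-like cells, while the ranges of head mesoderm-like, forebrain, ectoderm and crest cells overlapped from each to the next. In surface ectoderm-like cells Ptch1 was 38.5, 68.5, 49.9, 28.7 and 28.8 CPM in libraries 1 to 5. In crest mesenchyme-like cells it was 17.5, 49.3, 32.2, 48.2 and 75.0 CPM. Optic vesicle-like cells stood lower, at 31.5, 26.4, 14.7 and 24.8 CPM in libraries 2 to 5, and within each of libraries 2, 3 and 4 they were below the ventral, forebrain, ectoderm, crest and head mesoderm-like cells. Endothelium-like cells had 8.35 CPM and erythroid-like cells 4.69 CPM in all.

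Thinned to 10000 UMIs, 67.2% of ventral cells had a Ptch1 UMI, as did 39.5% of head mesoderm-like, 32.7% of other forebrain-like, 30.1% of crest mesenchyme-like, 27.9% of surface ectoderm-like and 19.3% of optic vesicle-like cells. Erythroid-like cells gave 6.72%. Every class named here was therefore above that background, from optic vesicle-like cells upwards. Unthinned, 86.8% of ventral cells, 45.8% of optic vesicle-like cells and 17.4% of the more deeply read erythroid-like cells had a UMI.

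**Figure D2:**
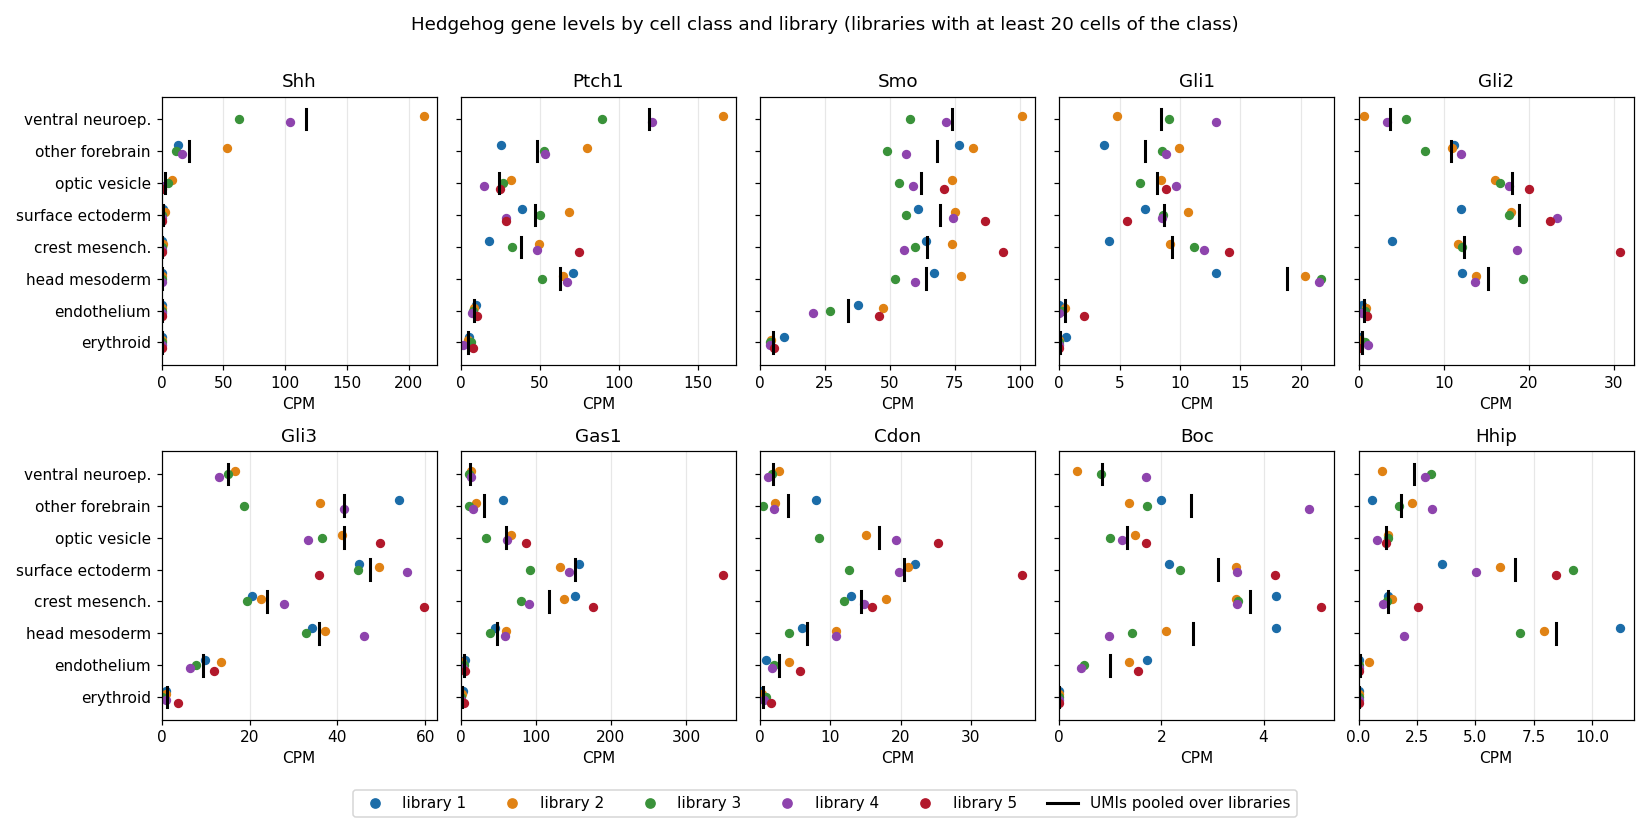
Level of each of the 10 genes (x axis, CPM, with a scale of its own per gene) in 8 cell classes; each coloured point is a library with at least 20 cells of the class and the black bar is the level over all libraries. Shh and Ptch1 are highest in the ventral class, Gli1 in head mesoderm-like cells, Gas1 and Cdon in surface ectoderm-like cells, and Smo lies between 62.1 and 73.9 CPM in the 6 upper classes.

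Smo encodes the membrane protein that Ptch1 restrains (chr6:29735503-29761365, plus strand), and its level hardly set the classes apart. Over all libraries it was 73.9 CPM in ventral, 69.3 in surface ectoderm-like, 68.0 in other forebrain-like, 64.1 in crest mesenchyme-like, 63.9 in head mesoderm-like and 62.1 CPM in optic vesicle-like cells. Each class's range over libraries overlapped the next: ventral cells had 101, 57.7 and 71.5 CPM in libraries 2, 3 and 4, and optic vesicle-like cells had 73.9, 53.4 and 58.8 CPM there. Endothelium-like cells stood lower, at 34.0 CPM, and erythroid-like cells at 5.14 CPM.

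Gli1, the transcription factor whose own gene is switched on by the pathway (chr10:127329882-127341974, minus strand), did not follow Ptch1 in its order of classes. Head mesoderm-like cells were highest, with 13.0, 20.4, 21.7 and 21.5 CPM in libraries 1 to 4. Crest mesenchyme-like cells had 4.15, 9.19, 11.2, 12.0 and 14.1 CPM in libraries 1 to 5. Ventral cells, the highest in Ptch1, had 4.76, 9.07 and 13.0 CPM of Gli1 in libraries 2, 3 and 4. Optic vesicle-like cells, low in Ptch1, had 8.43, 6.72, 9.63 and 8.85 CPM of Gli1 in libraries 2 to 5. The ventral and optic vesicle-like ranges overlapped, and in library 2 the ventral level was the lower. Other forebrain-like cells had 3.74, 9.91, 8.54 and 8.85 CPM, and surface ectoderm-like cells had 7.13, 10.7, 8.57, 8.53 and 5.63 CPM. Endothelium-like cells had 0.464 CPM, or 6 UMIs in 388 cells. Erythroid-like cells had 1 Gli1 UMI in 253 cells.

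Thinned to 10000 UMIs, 15% of head mesoderm-like cells had a Gli1 UMI, against 6.51% to 7.55% in optic vesicle-like, forebrain, ventral, crest and ectoderm cells and 0% of erythroid-like cells. Unthinned shares were 35.1% in head mesoderm-like, 22.5% in optic vesicle-like, 17.8% in ventral and 0.395% in erythroid-like cells. Within the thinned cells of a class, Gli1 and Ptch1 were set side by side. In head mesoderm-like cells, 22.9% of cells with a Ptch1 UMI also had a Gli1 UMI, against 9.85% of those without. The same shares were 10.9% and 5.24% in crest mesenchyme-like cells and 11.2% and 5.05% in other forebrain-like cells. In the ventral class they were 7.14% and 6.90%, and in optic vesicle-like cells 9.06% and 7.19%. These shares pool libraries and are a description of cells, which are not replicates.

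**Figure D3:**
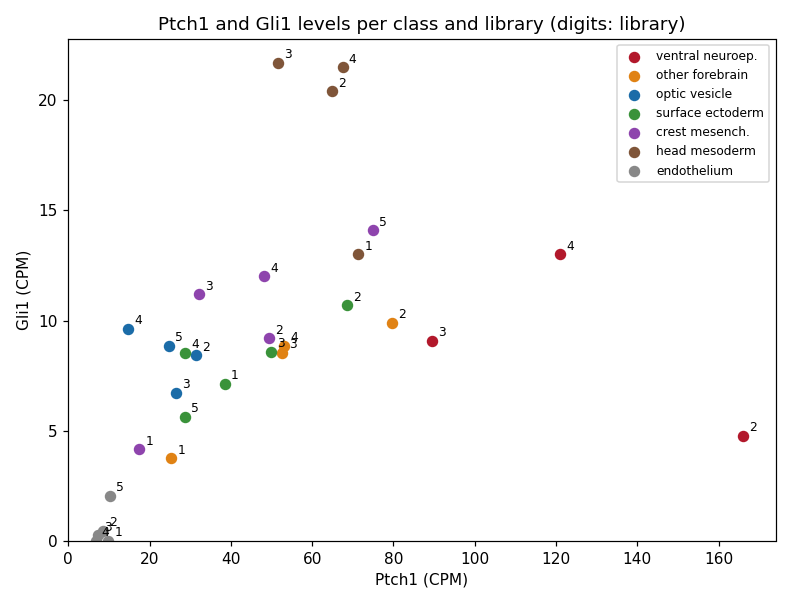
Ptch1 (x axis, CPM) against Gli1 (y axis, CPM) for each class and library with at least 20 cells; colour is the class and the digit the library. Head mesoderm-like cells lie highest in Gli1 (13.0 to 21.7 CPM), ventral cells lie furthest right in Ptch1 (89.5 to 166 CPM) with Gli1 between 4.76 and 13.0 CPM, and endothelium-like cells lie near the origin.

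Hhip encodes a membrane protein that binds and holds back the ligand (chr8:79965851-80058006, minus strand). It was sparse in all classes. Head mesoderm-like cells had 11.2, 7.92, 6.91 and 1.96 CPM in libraries 1 to 4, and surface ectoderm-like cells had 3.57, 6.07, 9.16, 5.04 and 8.44 CPM in libraries 1 to 5. These ranges overlapped each other, and the surface ectoderm range lay above that of the ventral class, the next in order. Ventral cells had 1.02, 3.09 and 2.84 CPM in libraries 2, 3 and 4. Optic vesicle-like cells had 1.18 CPM in all and crest mesenchyme-like cells 1.28 CPM. Erythroid-like cells had 0 Hhip UMIs, which allows up to 0.276 CPM by 3 counts. Over all libraries, Ptch1 was highest in the ventral class and Gli1 and Hhip in head mesoderm-like cells, but for Hhip the surface ectoderm-like level was the higher in libraries 3 and 4.

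Gas1, a co-receptor anchored to the outer membrane (chr13:60174405-60177365, minus strand), was highest in surface ectoderm-like cells, at 158, 132, 91.6, 144 and 349 CPM in libraries 1 to 5. Crest mesenchyme-like cells had 152, 138, 79.7, 91.3 and 176 CPM. Optic vesicle-like cells had 66.9, 32.9, 61.9 and 86.8 CPM in libraries 2 to 5. The ectoderm and crest ranges overlapped, as did those of the crest and optic vesicle-like classes, but within each of libraries 2 to 5 both the ectoderm and the crest level were above the optic vesicle-like level. Ventral cells were lowest among the neuroepithelial classes over all libraries, with 13.3, 10.3 and 13.6 CPM in libraries 2, 3 and 4. Other forebrain-like cells spread from 56.2 CPM in library 1 to 20.1, 10.4 and 15.8 CPM in libraries 2, 3 and 4, so in library 3 the ventral and forebrain levels were alike. Library 3 was lowest in each of these classes and in head mesoderm-like cells.

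Cdon encodes an immunoglobulin-family co-receptor (chr9:35421128-35507652, plus strand). Its level was 22.1, 21.1, 12.7, 19.8 and 37.3 CPM in surface ectoderm-like cells of libraries 1 to 5. Optic vesicle-like cells had 15.1, 8.45, 19.3 and 25.4 CPM in libraries 2 to 5. Crest mesenchyme-like cells had 12.9, 17.9, 11.9, 14.8 and 16.0 CPM in libraries 1 to 5. The ranges of these 3 classes overlapped, and head mesoderm-like cells lay below that of the crest, at 5.99, 10.8, 4.05 and 10.8 CPM in libraries 1 to 4. Other forebrain-like cells had 7.99, 2.13, 0.379 and 1.98 CPM, and ventral cells 2.72, 1.65 and 1.13 CPM in libraries 2, 3 and 4. Thus the class with the most Shh RNA had little RNA of Cdon and Gas1. Boc, the relative of Cdon (chr16:44485049-44558897, minus strand), was sparse throughout. It was 3.73 CPM in crest mesenchyme-like, 3.10 in surface ectoderm-like, 1.32 in optic vesicle-like and 0.829 CPM in ventral cells, the last from 8 UMIs. Its range over libraries overlapped that of the next class all the way down the order, and erythroid-like cells had 0 UMIs.

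Gli2 encodes the main activator among the Gli factors (chr1:118834132-119053619, minus strand). It was 16.1, 16.6, 17.7 and 20.0 CPM in optic vesicle-like cells of libraries 2 to 5. Surface ectoderm-like cells had 12.1, 17.9, 17.7, 23.3 and 22.5 CPM. In crest mesenchyme-like cells Gli2 ranged more widely, at 3.96, 11.7, 12.2, 18.6 and 30.8 CPM in libraries 1 to 5. Ventral cells had 0.680, 5.57 and 3.40 CPM in libraries 2, 3 and 4, below all other neuroepithelial and mesenchymal classes in the same libraries. The ventral cluster led by Tbx3 and Fgf10 had 0 Gli2 UMIs in 147 cells, while that led by Sepp1 and Mt3 had 6.49 CPM.

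Gli3, which mainly yields the repressor (chr13:15463235-15730026, plus strand), was spread over the classes. Surface ectoderm-like cells had 35.9 to 55.8 CPM over 5 libraries and optic vesicle-like cells 41.1, 36.4, 33.4 and 49.7 CPM in libraries 2 to 5. Other forebrain-like cells had 54.1, 36.1, 18.8 and 41.5 CPM, head mesoderm-like cells 32.9 to 46.0 CPM and crest mesenchyme-like cells 20.5, 22.6, 19.4, 27.9 and 59.6 CPM. These ranges overlapped. Ventral cells were lower, at 16.7, 15.1 and 13.0 CPM in libraries 2, 3 and 4, a range that did not overlap that of crest mesenchyme-like cells, the class above. Within the forebrain, the clusters rich in Shh were poor in Gli3: those led by Dbx1 had 9.66 and 7.04 CPM, against 68.1 CPM in the cluster led by Wnt8b and Emx2 and 71.3 CPM in that led by Fgf17 and Fgf8.

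To put these differences on a common scale, classes were compared by a size rule: a ratio of CPM of at least 2 either way, a 95% counting interval that excludes 1, at least 10 CPM on the higher side, and the same direction in every library with 20 or more cells of both classes. The intervals cover counting error only. With 1 embryo per stage and unassigned libraries, no test was made. Between the ventral and the optic vesicle-like class, 7 of the 10 genes reached 10 CPM in at least 1 of the classes, and 6 of them met the rule. Shh was 43.3-fold higher in the ventral class (36.8 to 51.3) and Ptch1 4.89-fold higher (4.52 to 5.28). The Shh ratio moved with single libraries: it was 171 without library 3, which held 131 of the 168 optic vesicle-like UMIs, and 26.9 without library 5, which held 0 of them. For higher genes the count was 2 of 7, beside 2.06% of all 7247 genes tested. Cdon was 9.05-fold lower (5.69 to 15.3), Gas1 4.98-fold lower (4.14 to 6.04), Gli2 4.85-fold lower (3.48 to 6.96) and Gli3 2.75-fold lower (2.33 to 3.28). For lower genes the count was 4 of 7, beside 1.86% of all genes. Gli2 was 10.2-fold lower without library 3 and 18.1-fold lower at a Leiden resolution of 2, and Cdon was 15.1-fold lower in cells thinned to 10000 UMIs. Smo had a ratio of 1.19 (1.10 to 1.29). Gli1, below 10 CPM in both classes, had a ratio of 1.04 (0.813 to 1.32). The median log2 ratio of the 7 genes was -1.46, and that of all genes tested was 0.04. At a minimum of 20 CPM, Gli2 and Cdon were no longer tested and 4 genes met the rule.

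Other forebrain-like cells, set against optic vesicle-like cells, had 8.05-fold more Shh (6.80 to 9.59), the 1 gene of 7 that was higher by the rule, beside 1.20% of 7159 genes. Without library 3 the Shh ratio was 23.5, and without library 5 it was 5.02. Cdon was 4.26-fold lower (3.54 to 5.15), the 1 gene of 7 that was lower, beside 1.68% of all genes. Without library 1 it was 10.5-fold lower. Ptch1 at 1.98-fold higher and Gas1 at 1.95-fold lower lay just outside the rule. Both met it when library 1 or library 3 was left out, which gave 4 genes in each case. The ratios pool unlike sets of libraries: library 1 held 405 forebrain and 3 optic vesicle-like cells, and library 5 held 7 and 798. Within libraries 2, 3 and 4, Gas1 was 20.1, 10.4 and 15.8 CPM in forebrain cells. In optic vesicle-like cells it was 66.9, 32.9 and 61.9 CPM there. Ptch1 was higher in the forebrain cells of each of these libraries. The clustering also mattered here, since 0 genes met the rule at a Leiden resolution of 2.

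Crest mesenchyme-like cells were set against optic vesicle-like cells. Of 6 Hedgehog genes tested, 0 were higher and 0 lower by the rule, beside 4.40% and 5.60% of 7370 genes. Gas1 was 1.95-fold higher and Ptch1 1.56-fold higher, and Boc was 2.83-fold higher at a level below 10 CPM. Shh, below 10 CPM in both classes, was 10.5-fold lower in crest mesenchyme-like cells (5.75 to 21.5). Gas1 met the rule without library 4 or without library 5.

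Head mesoderm-like cells, set against crest mesenchyme-like cells, had 2.02-fold more Gli1 (1.71 to 2.39), higher in 4 of 4 libraries, the 1 gene of 7 higher beside 3.29% of 7224 genes. Gas1 was 2.42-fold lower (2.22 to 2.65) and Cdon 2.16-fold lower (1.71 to 2.76), 2 of 7 beside 1.08% of all genes. Hhip was 6.57-fold higher (4.68 to 9.30), but below 10 CPM on both sides and so not counted. The Gli1 ratio sat at the edge of the rule: over 15 alternatives it ran from 1.73 to 2.20 and met the rule in 5. Without library 3, only Gas1 met the rule.

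Surface ectoderm-like cells had 2.54-fold more Gas1 (2.40 to 2.68) than optic vesicle-like cells, 1 of 6 genes higher, beside 6.53% of 7613 genes. None of the 6 (0) was lower, beside 2.50% of all genes. Ptch1 was 1.92-fold higher over the whole class and met the rule without library 5, giving 2 genes.

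**Figure D4:**
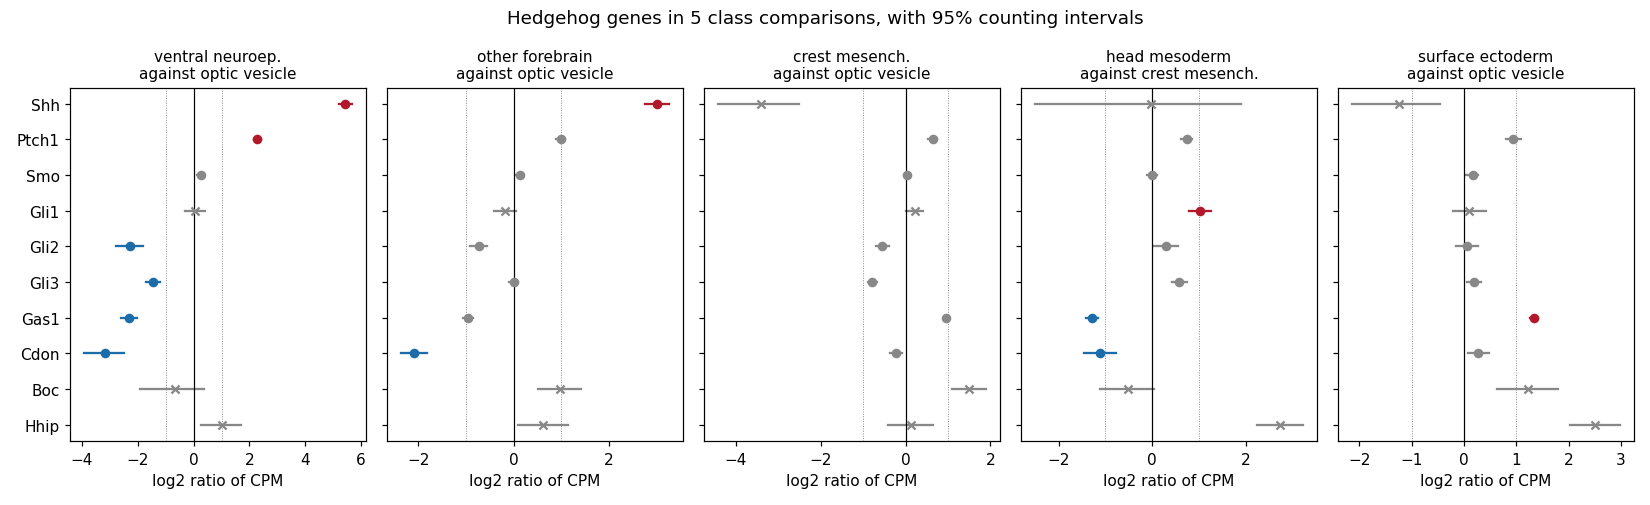
Log2 ratio of CPM (x axis) of each gene in the 5 class comparisons, with 95% counting intervals as lines; red is higher and blue lower by the size rule, grey did not meet it, a cross marks genes below 10 CPM in both classes, and the dotted lines stand at a ratio of 2 either way. The ventral panel holds 2 red and 4 blue genes, and the crest panel holds none of either (0).

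The surface ectoderm-like class was not uniform. A cluster of 67 cells led by Hesx1, Lhx3 and Gpr50, genes known from the pituitary primordium, had 148 CPM of Ptch1 and 20.3 CPM of Gli1. The other ectodermal clusters had 19.9 to 42.4 CPM of Ptch1 and 3.17 to 11.7 CPM of Gli1. The co-receptors went the other way, with 10.9 CPM of Gas1 and 3.95 CPM of Cdon in that cluster, against 335 and 34.8 CPM in the cluster led by Neurog1 and Foxi2. The latter also had the highest Hhip of any cluster, at 17.9 CPM. Forebrain clusters varied in Ptch1 too, from 10.9 CPM in the cluster led by Fgf17 and Fgf8 to 88.5 CPM in the 49 cells led by Barhl2, which had 7.23 CPM of Shh. Clusters of the optic vesicle-like class had 10.8 to 32.7 CPM of Ptch1. Among them, Gas1 was highest, at 136 CPM, in the cluster led by Trpm1, Pmel and Dct, genes of pigment cells, and Cdon was highest, at 47.4 CPM, in the cluster led by Aldh1a1, a gene of retinoic acid synthesis. These clusters were chosen for mention after their values were seen.

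Levels were also followed by the Shh count of the cell itself, as a description of cells that are not replicates. Ventral cells with 0, 1, 2 to 3 and 4 or more Shh UMIs numbered 138, 48, 79 and 100. Their Ptch1 was 106, 105, 119 and 141 CPM in turn, and their Gli1 was 11.7, 12.2, 7.81 and 3.33 CPM. By library, cells with 2 or more Shh UMIs had more Ptch1 than the rest in libraries 2 and 3 (178 against 145 CPM and 99.2 against 80.8 CPM) but not in library 4 (120 against 122 CPM). Their Gli1 was lower in libraries 3 and 4 (5.27 against 12.4 CPM and 3.84 against 20.4 CPM) and not in library 2 (5.54 against 3.52 CPM). Each of these Gli1 values rests on 3 to 32 UMIs. These groups of ventral cells differ in cluster and library makeup, and the part of that makeup in these values was not tested.

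Other forebrain-like cells fell into 950 cells with no Shh UMI and 72, 64 and 68 cells with 1, 2 to 3 and 4 or more. Ptch1 was 41.2 CPM in the first and 82.8, 79.6 and 84.1 CPM in the others. Gli3 went the other way, at 48.3 CPM in cells with 0 Shh UMIs and 10.4, 7.45 and 10.8 CPM in those with Shh. Gas1 was 35.2, 7.08, 6.30 and 13.7 CPM over the same bins. Most of the cells with 2 or more Shh UMIs were of the clusters led by Dbx1, which also carried Nkx2-1. The bins thus differ in cluster and library makeup, and the part of that makeup in these values was not tested.

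**Figure D5:**
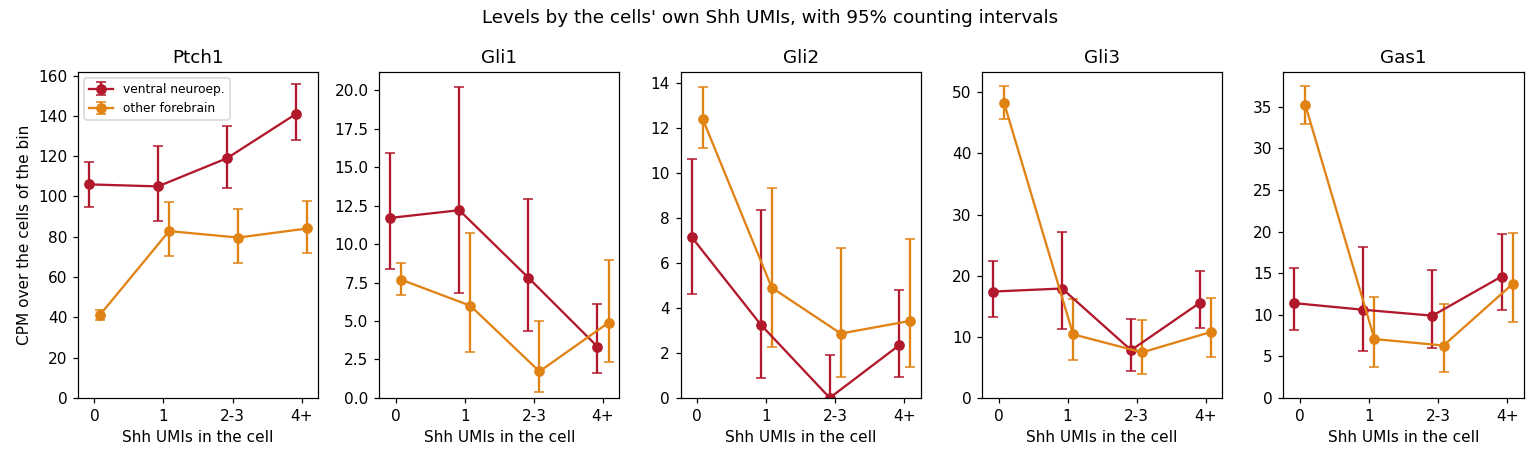
Level of 5 genes (y axis, CPM) in cells grouped by their own Shh UMIs (x axis), for ventral and other forebrain-like cells, with exact Poisson 95% intervals. In the forebrain, Ptch1 goes from 41.2 to 84.1 CPM and Gli3 from 48.3 to 10.8 CPM between cells with 0 and with 4 or more Shh UMIs; in the ventral class, Gli1 goes from 11.7 to 3.33 CPM.

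The pathway's other components were followed in 4 lists of 47 genes. In the list of cilium and GLI processing genes, among them Sufu, Kif7 and Ift88, 8 to 9 of 16 were tested in each comparison. Of these, 0 met the size rule in any of the 5, beside 1.08% to 6.53% of all genes in either direction. With so few genes tested, 0 does not set this list apart from all genes. Among target genes named in other tissues, 4 of 8 tested were higher and 0 lower in the ventral than in the optic vesicle-like class, beside 2.06% and 1.86% of all genes, with a median log2 ratio of 1.07 against 0.04 for all genes. The 4 were the homeobox genes Nkx6-2 (41.7 against 3.63 CPM, 11.5-fold), Nkx2-2 (35.9 against 4.22 CPM, 8.49-fold) and Nkx2-9 (72.5 against 8.67 CPM, 8.37-fold), all known from the ventral neural tube, and the survival gene Bcl2 (40.2 against 13.9 CPM). In the forebrain comparison, 4 of 8 were higher as well, beside 1.20% of all genes, with Nkx2-9 at 7.02-fold, Olig2, a gene of ventral progenitors, at 5.28-fold, Nkx2-2 at 2.39-fold and Mycn at 2.16-fold. Nkx2-1 and Nkx2-4 had helped to name the ventral class, and Nkx2-2, Nkx2-9 and Nkx6-2 had not.

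Forkhead genes of the same list differed among the mesenchymal classes. Foxl1 was 11.6-fold higher in head mesoderm-like than in crest mesenchyme-like cells (13.3 against 1.14 CPM), Foxd1 3.47-fold and Foxf2 3.43-fold higher. Foxd2 was lower there (18.2 against 38.4 CPM), which made 3 higher and 1 lower of 9 tested, beside 3.29% and 1.08% of all genes. Between crest mesenchyme-like and optic vesicle-like cells, Foxd2 was 64.4-fold higher (38.4 against 0.596 CPM), the 1 of 6 tested to meet the rule, beside 4.40% of all genes higher. Foxd1 was 28.4-fold lower in surface ectoderm-like than in optic vesicle-like cells (0.980 against 27.8 CPM), the 1 of 6 to meet it, beside 2.50% of all genes lower.

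Of the genes of ligand reception, Gpc3 met the size rule in the most comparisons. This glypican is a cell-surface proteoglycan that binds Hedgehog ligand, and whether its level alters the response was not tested. It was 157 CPM in ventral, 90.3 in other forebrain-like, 77.3 in crest mesenchyme-like and 130 CPM in surface ectoderm-like cells against 36.5 CPM in optic vesicle-like cells, and 206 CPM in head mesoderm-like cells. It was higher by the rule in all 5 comparisons, with 4.30-fold in the ventral one. Lrp2, an endocytic receptor for Shh, was 2.69-fold higher in the ventral class (40.9 against 15.2 CPM) and 31.0-fold lower in crest mesenchyme-like cells (0.490 CPM). Of the whole reception list, 2 of 7 tested were higher in the ventral comparison (2.06% of all genes) and 1 of 7 in the forebrain comparison (1.20%). In the crest comparison 1 was higher and 1 lower of 7 (4.40% and 5.60%), and in the head mesoderm comparison 1 of 5 was higher (3.29%). In the ectoderm comparison 2 of 7 were higher (6.53%), with Gpc4 at 2.27-fold. Among genes of ligand release, Scube1 was 4.32-fold higher in the ventral class (60.2 against 13.9 CPM) and Scube3 was 2.10-fold higher in surface ectoderm-like cells (29.8 against 14.2 CPM), each 1 of 2 tested, beside 2.06% and 6.53% of all genes, with 0 of 2 in the other 3 comparisons.

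Over 36 units, each the cells of 1 class in 1 library, genes were ranked by the correlation of their log2 levels with each of the 8 Hedgehog genes that reached 10 CPM in some class. These r values describe units that share libraries and depth. Endothelium-like and erythroid-like units were among them. Over all libraries those classes had 8.35 and 4.69 CPM of Ptch1 and 0.464 and 0.0919 CPM of Gli1. High r values can therefore reflect genes that were low in both classes, and r without these units was not computed. Nearest to Shh were Nkx2-1 (r = 0.96), Nkx2-4 (0.96) and Hes5 (0.92), the first pair being markers that named the ventral class. Nearest to Ptch1 were Fndc3c1 (0.95), Scube1 (0.90) and Ly6e (0.88), and nearest to Gli1 were Col11a1 (0.93), Ly6e (0.92) and Sdc2 (0.90). For Gas1 they were Cdon (0.92), Tenm3 (0.91) and Zfhx4 (0.89), and for Cdon they were Gas1 (0.92), Stra6 (0.87) and Sema5a (0.86). Gli2 lay nearest to Tenm3 (0.90), Hunk (0.88) and Gli3 (0.88). Gli3 lay nearest to Mdk (0.93), Fam101b (0.93) and Sgpl1 (0.92), and Smo to Trp53bp1, Tgif2 and Cbx1 (0.98 each). Between members, r was 0.83 for Ptch1 with Gli1, 0.59 for Shh with Ptch1, 0.18 for Shh with Gli1 and -0.31 for Shh with Cdon.

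Over all cells of a library, levels carry both its class makeup and the levels within classes, which were not separated. Shh was 10.1, 24.1, 7.97, 6.88 and 0.116 CPM in libraries 1 to 5. Gli1 was 4.23, 8.04, 8.56, 9.97 and 10.4 CPM, Gli2 was 8.78, 11.0, 13.5, 15.4 and 20.4 CPM, and Cdon was 8.66, 9.11, 7.01, 12.4 and 21.2 CPM. Over libraries 2 to 5, Gli2 showed this spread within crest mesenchyme-like cells (11.7 to 30.8 CPM) more than within optic vesicle-like cells (16.1 to 20.0 CPM). In library 1, which had 3 optic vesicle-like cells, the crest level was 3.96 CPM. In library 5, crest mesenchyme-like cells had a median of 10592 UMIs, against 27481 to 40679 UMIs in the other libraries, and the part of that depth in their levels was not tested. A further 394 cells, 389 of them of library 5 and led by Crym and Bcl11a, were unnamed, though their marker lists pointed to crest. They had 71.0 CPM of Ptch1, 19.1 of Gli1, 30 of Gli2 and 186 CPM of Gas1. An unnamed cluster of 151 cells, 100 of library 1 and 51 of library 2, led by Eras and Tal2, had 9.46 CPM of Ptch1, 2.12 of Gli1 and 0 Shh UMIs, below every optic vesicle-like cluster in Ptch1 and Gli1.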

How the data were processed

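Single-cell RNA of the ocular area was measured in 1 embryo at each of 5 stages. The authors deposited raw UMI counts in a pooled matrix. Per the submitters' processing notes, Cell Ranger and mm10 (GRCm38) were used; the version and the calling of cells were not given in the sources used here. The suffixes of the barcodes name no stage, so libraries stayed unassigned and the planned stage groups entered no comparison.

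A filter on barcodes (1000 genes or more, mitochondrial UMIs 10% or less) removed 22. Scrublet, run per library at an expected 6%, removed 66 (0.403% to 1.46% of a library), so in libraries whose share is far under the expected one few doublets were taken out. Cells were clustered with scanpy 1.11.5 (2000 variable genes, 30 components, 15 neighbours, Leiden resolution 1; neuroepithelium was clustered again at 1.5 and surface ectoderm at 1), without the Hedgehog genes. A name needed at least 3 markers with 10 UMIs and a 2-fold excess after adding 5 CPM, and 5 of 10 for optic vesicle. A cluster with more markers of another class than of its own among its 10 leading genes was left unnamed. The scoring, the resolution of 1.5 and this last rule were set after the data were seen, and members and lists were chosen with earlier results of these data known.

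CPM are summed UMIs of a class over its total. Ratios pool all libraries, also those in which either class had few cells. Total counts per library were 41694822 to 72925591 UMIs, and counts of a 3′ method are not compared between genes. Ratios carry exact 95% Poisson intervals and shares exact Clopper-Pearson ones; these and the floor of 3 counts cover counting error only. The size rule read libraries with at least 20 cells of a class. Named genes were the 10 members, the 10 other pathway genes with the largest ratio among those past the rule, and the 3 genes of highest Pearson correlation with each member (log2 of CPM plus 5, genes of at least 20 CPM). Bcl2, Foxf2, Gpc4, Mycn and Scube3, also past the rule, fell outside it and were named after their values were seen. Coordinates are from the GENCODE annotation of GRCm38. Alternatives covered doublets, resolution, library weighting, each library left out, the CPM minimum, thinning and clusters left out or kept.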

Additional observations from a re-analysis of the deposited data

How the results depend on the processing

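Of 12 ratios that met the size rule, 15 alternatives each gave 180 values: 159 kept the direction and the call, 21 lost the call in the same direction and 0 reversed. Of 750 ratio values in all, 153 moved outside their counting interval, and 9 ratios that did not meet the rule met it under some alternative. For the ventral comparison the Shh ratio ran from 26.9 (without library 5) to 171 (without library 3) and that of Ptch1 from 4.14 to 6.50, each with its call kept in all 15. Numbers of Hedgehog genes past the rule moved in the other comparisons. Other forebrain against optic vesicle-like cells gave 2, but 0 at resolution 2, 4 with libraries weighted equally, 1 at 20 CPM, 4 thinned to 10000 UMIs, 1 with the little-Malat1 clusters left out before clustering, 1 with the unnamed clusters kept (an alternative chosen after seeing the data) and 2 to 4 with each library left out. Ptch1 also met the rule with doublet calls kept, and Gas1 with Hedgehog genes allowed in the clustering, in each case beside Shh and Cdon. Crest against optic vesicle-like cells gave 0, but 1 with equal weighting (Ptch1), 1 with no minimum CPM (Boc), 1 with the unnamed clusters kept (Gas1) and 0 to 1 with each library left out. Head mesoderm against crest gave 3, but 1 at 20 CPM, 4 with no minimum CPM, 1 to 3 with each library left out, and 2 under all other alternatives except that with Hedgehog genes allowed in the clustering (3). Surface ectoderm against optic vesicle-like cells gave 1, but 2 at resolution 2, 2 at resolution 0.5, 3 with no minimum CPM and 1 to 2 with each library left out. The ventral share of cells with 2 or more Shh UMIs was 45.0%, but 37.4% with libraries weighted equally, 37.2% at 1 or more UMIs and 39.6% to 48.9% with each library left out (lowest without library 3). The cause of these moves was not tested, other than that a higher minimum tests fewer genes. Sparse genes (Boc, Hhip, and Shh outside its source classes) are limited by depth. No paired analysis was possible because each stage has 1 sample and the libraries carry no stage.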
